A study of Mus musculus with 24 samples.

Results

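The response to depolarization was examined in mouse cortical neurons that had lost Smarcc2 and carried a wild-type (WT) copy of it again. The 5 libraries, of 24 in the series, were chosen by their titles alone: 2 from resting cultures (replicates 1 and 2) and 3 from depolarized cultures (replicates 1, 2 and 3). All came from primary neurons of cortex taken at embryonic day 16.5 and kept for 18 days in vitro (DIV18), knocked out for Smarcc2 with WT Smarcc2 added back. Every culture, resting ones included, was silenced overnight with 1 µM tetrodotoxin, a sodium channel blocker, and 100 µM D-AP5, an NMDA receptor blocker. Depolarized cultures then received KCl at 50 mM for 30 min, in a mix that also held calcium, magnesium and a buffer, while resting wells had medium removed and returned with nothing added. The comparison groups were cultures of the same age with the knockout and an empty vector (3 resting, 3 depolarized) or with a non-targeting guide, NT (2 and 2), and WT neurons at DIV7 (2 and 2), all 4 of them treated with DMSO. Knockout cultures given the S586E construct (3 resting) or the S586A construct (2 depolarized) entered the same fit and serve here only as further libraries. The DIV18 libraries were made from total RNA depleted of ribosomal RNA and the DIV7 ones from poly(A)-selected RNA. The labels count the cortex of each embryo as a biological replicate, but do not say whether cultures of different groups came from the same embryos, nor name the guide, the vector or the share of neurons that took up the construct.

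Raised external potassium depolarizes the neuron and opens voltage-gated calcium channels. The calcium that enters activates kinases that phosphorylate factors already bound at promoters and enhancers, among them CREB and the SRF partners, so that the first wave of genes is transcribed without new protein synthesis. These early genes encode transcription factors of the Fos, Egr, Nr4a and Npas4 families, effectors that act at synapses such as Arc and the short form of Homer1, and inhibitors of the same kinases, and a later wave of secreted and synaptic proteins follows. Smarcc2 (BAF170) is a scaffold subunit of the BAF chromatin remodelling complexes, which open nucleosomes at enhancers. The comparison asks which genes of this programme answer to KCl once WT Smarcc2 is back.

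Smarcc2, the gene targeted and replaced, stood at 816 and 756 CPM (counts scaled to a common library total, after TMM normalisation) in the resting libraries and at 895, 737 and 1089 in the depolarized ones. NT cultures had 251 ± 19.9 CPM (SD, n = 2) at rest and vector cultures 53.6 ± 9.12 (SD, n = 3). The added copy therefore gave more Smarcc2 RNA than the non-targeting cultures, in both states. Its paralog Smarcc1 stood at 88.1 ± 1.01 CPM (SD, n = 2) at rest and 84.9 ± 5.18 (SD, n = 3) after KCl. Clca1, which the labels name as a marker of toxic stimulation, was at 5 to 10 counts in every library (log2 fold change -0.054, 95% interval -1.50 to 1.39). Depth was even, at 20662492 to 22378019 estimated counts a library. All 10 neuron markers were detected (summed level 3252 to 3550 CPM), while the astrocyte markers summed to 964 to 1284 CPM, the oligodendrocyte lineage to 114 to 153 and the microglia markers to 5.53 to 8.63, with C1qa at 0 in all 5 libraries. In RNA from whole cultures, fewer cells of a type and less RNA per cell cannot be told apart.

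After KCl 8 genes rose and 1 fell at an adjusted p under 0.05 (edgeR quasi-likelihood test over 20940 genes), which is 0.0430% of the genes tested for both directions and 0.0382% for rises. The risen genes were Fosb, Npas4, Egr1, Fos, Egr4 and Egr2, all early transcription factors, with Mbd6 and Gm47075. Lars2 fell. An unadjusted p under 0.05 was reached by 614 genes in the direction of a rise (2.93%) and by 426 in that of a fall (2.03%). With either resting library left out, Fosb was the only gene called; with a depolarized library left out, 8 to 12 genes were. In simulated counts with 41147 genes, the same test recovered 60% of genes given a log2 change of 1, 94.9% at 2 and 100% at 4. The changed genes were drawn only from those above a minimum mean count, and each changed alike in all 3 depolarized libraries. The real depolarized libraries differed in their rise, so these shares do not cover uneven responses or genes with few counts. A rise of 2-fold could thus be missed here, and a gene that was not called is not shown to be unchanged.

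**Figure D1:**
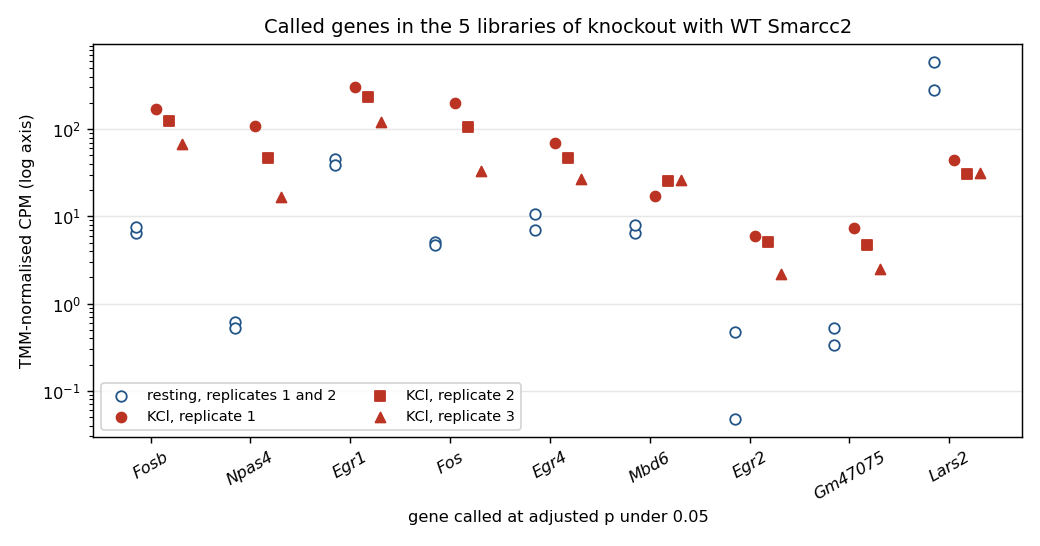
TMM-normalised CPM (log axis) of the 9 called genes in the 2 resting libraries (open circles) and the 3 depolarized libraries (filled symbols, 1 shape per replicate) of the knockout with WT Smarcc2. The resting and depolarized libraries do not overlap for any of the 9 genes, and replicate 3 is the lowest depolarized library for the risen genes other than Mbd6.

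Promoters are shown for the 5 called early transcription factors that the RefSeq promoter table (build GRCm38.p6) holds and that may be printed, because these genes moved together. Each run is the 250 bases before the start site nearest the form with most counts, written 5′ to 3′ on the gene's own strand. Capitals mark the core of the cAMP response element on either strand, TGACG or its complement, which CREB-type factors bind, and in Egr2 the CArG box that SRF binds.
Fos, chr12:85473640-85473889, plus strand: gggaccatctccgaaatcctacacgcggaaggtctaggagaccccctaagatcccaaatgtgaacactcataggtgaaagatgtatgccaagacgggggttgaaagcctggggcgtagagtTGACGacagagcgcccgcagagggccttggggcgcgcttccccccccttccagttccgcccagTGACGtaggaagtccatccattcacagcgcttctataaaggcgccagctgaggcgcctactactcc
Fosb, chr7:19310046-19310295, minus strand: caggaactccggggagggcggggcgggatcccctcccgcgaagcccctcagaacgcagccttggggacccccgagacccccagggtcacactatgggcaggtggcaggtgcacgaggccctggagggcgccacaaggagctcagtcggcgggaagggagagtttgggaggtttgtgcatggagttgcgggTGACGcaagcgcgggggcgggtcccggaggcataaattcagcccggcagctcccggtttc
Npas4, chr19:4989972-4990221, minus strand: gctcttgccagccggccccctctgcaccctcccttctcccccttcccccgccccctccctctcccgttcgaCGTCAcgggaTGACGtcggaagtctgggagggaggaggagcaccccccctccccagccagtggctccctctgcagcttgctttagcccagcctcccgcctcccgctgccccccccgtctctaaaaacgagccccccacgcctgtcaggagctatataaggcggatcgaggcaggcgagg
Egr2, chr10:67537619-67537868, plus strand: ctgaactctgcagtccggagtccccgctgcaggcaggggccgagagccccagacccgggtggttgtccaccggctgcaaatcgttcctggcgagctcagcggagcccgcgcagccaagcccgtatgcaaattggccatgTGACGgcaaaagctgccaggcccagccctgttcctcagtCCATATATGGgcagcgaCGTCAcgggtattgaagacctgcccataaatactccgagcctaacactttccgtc
Egr4, chr6:85513590-85513839, minus strand: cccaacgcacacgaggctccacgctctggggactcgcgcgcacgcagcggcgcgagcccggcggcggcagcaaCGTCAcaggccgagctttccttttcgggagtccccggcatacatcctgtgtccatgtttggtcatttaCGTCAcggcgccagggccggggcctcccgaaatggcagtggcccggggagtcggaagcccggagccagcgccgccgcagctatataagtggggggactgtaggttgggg
TGACG was found in all 5 of these windows, against 17.9% of 32536 windows of the same length in the table. It occurred at least 2 times in 4 of them, against 3.92% of all windows. Of all 10 genes of this account that were looked up and had a window, 8 held it, and the called genes Mbd6 and Lars2 did not. In Fos the matches begin 129 and 66 bases before the start, in Fosb 60, in Npas4 179 and 169, in Egr2 111 and 55, and in Egr4 177 and 109. The full palindrome TGACGTCA was in none of the 5 (1.56% of all windows), and neither was the AP-1 motif TGANTCA (6.73%). The CArG box lay in Egr2 alone, 72 bases before the start (1.48% of all windows), and the EGR motif GCGNGGGCG in Fosb alone, 50 bases before it (4.74%). Bases further upstream than these 250 were not searched, so sites there are not covered. Matches were sought on both strands and describe letters only, and the half-site is part of the full palindrome.

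The AP-1 factors, which bind DNA as dimers of a Fos and a Jun protein, held the most certain rise. Fosb (chr7:19302696-19310051) had 6.50 and 7.45 CPM at rest and 169, 124 and 67.0 CPM after KCl. Every depolarized library lay at least 9.61-fold above the resting mean, and the log2 fold change was 4.10 (SE 0.41, adjusted p 1.34e-04). Fos (chr12:85473890-85477273) had 5.08 and 4.65 CPM at rest against 197, 106 and 32.7 CPM after KCl. Its log2 fold change was 4.52 (SE 0.64, adjusted p 0.00567), with a 6.02-fold range among the depolarized libraries. Junb had 48.5 and 39.2 CPM at rest and 209, 158 and 73.0 CPM after KCl, without overlap, but missed the threshold (log2 fold change 1.74, SE 0.32, adjusted p 0.0567), which it passed under 5 of 12 other settings. Jun overlapped between the states, at 134 and 119 CPM against 271, 197 and 102 CPM (log2 fold change 0.58, adjusted p 0.977). Jund, Fosl2 and Fosl1 had log2 fold changes of 0.24, 0.11 and -0.39, and overlapped too.

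The forms of Fosb and Fos shifted as their counts rose. In Fosb the share of counts on transcripts not annotated as protein-coding was 25.5 and 22.7% at rest and 53.1, 57.5 and 63.8% after KCl. Fosb-204, a retained-intron form, went from 35.0 and 35.6 counts to 2081, 1558 and 955 counts, and the coding form Fosb-201 from 96.9 and 106 counts to 1744.5, 992.5 and 529. In Fos that share was 8.29 and 8.21% at rest and 16.2, 23.5 and 28.4% after KCl, where it lay mostly on Fos-203, annotated as a processed transcript. For both genes the states did not overlap, and the share was highest in the depolarized library where the gene rose least. In Npas4 the states overlapped, with 54.6 and 100% at rest, on 13 and 11 counts, and 69.4, 72.5 and 82.6% after KCl. Over the whole transcriptome the retained-intron forms took 1.53 and 1.65% of counts at rest and 1.77, 1.72 and 1.93% after KCl. The part of this shift in the shares of Fosb and Npas4 was not tested.

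Npas4, a neuronal factor that responds to calcium entry and is known for its control of inhibitory synapses, had the largest fold change of the called genes. It had 13 and 11 counts at rest (0.617 and 0.522 CPM) and 2492, 1026 and 376 counts after KCl (108, 46.8 and 16.8 CPM). The log2 fold change was 6.63 (SE 0.87, adjusted p 0.00357). The interval was wide, from 4.81 to 8.45, with 189-fold over the resting mean in replicate 1 and 29.5-fold in replicate 3.

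Of the Egr zinc finger factors, which bind GC-rich sites in promoters, 3 of the 4 rose. Egr1 had 45.9 and 38.5 CPM at rest and 303, 232 and 121 CPM after KCl (log2 fold change 2.38, SE 0.32, adjusted p 0.00357). Egr4 had 6.93 and 10.6 CPM at rest and 69.0, 46.1 and 26.9 CPM after KCl (log2 fold change 2.43, SE 0.36, adjusted p 0.00902). Egr2 had 10 counts and 1 count at rest and 137, 110 and 49 counts after KCl, or 0.474 and 0.0475 CPM against 5.92, 5.02 and 2.19 CPM. Its log2 fold change of 4.04 (SE 0.62, adjusted p 0.0110) is set by those few resting reads. Without resting replicate 1 or 2 it became 6.35 or 3.18. Egr3 overlapped between the states, at 33.5 and 37.1 CPM against 46.8, 36.5 and 38.9 CPM (log2 fold change 0.21, adjusted p 0.977).

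Other early transcription factors gave 2 further rises that did not pass the threshold. Nr4a1, an orphan nuclear receptor, had 4.60 and 4.79 CPM at rest and 29.0, 16.5 and 10.3 CPM after KCl (log2 fold change 1.98, adjusted p 0.212). Ier2 had 14.3 and 14.9 CPM at rest and 94.6, 51.7 and 25.3 CPM after KCl (log2 fold change 1.97, adjusted p 0.182). The states did not overlap for either gene. Nr4a2 had 5.79 and 5.08 CPM at rest and 8.56, 6.39 and 7.83 CPM after KCl (log2 fold change 0.48, adjusted p 0.977), and Nr4a3 overlapped (0.10). Srf, Klf2, Atf3 and Myc, with log2 fold changes of -0.026, 0.010, 0.12 and 0.32, overlapped as well. Of the 28 early transcription factors 6 were called. An unadjusted p under 0.05 in the direction of a rise was reached by 9 (32.1%, against 2.93% of all genes) and none reached it in that of a fall. Their median log2 fold change was 0.23 against 0.00427 over all genes tested, and 24 lay above 0, or 85.7% against 50.9%. In 11 of the 28 every depolarized library lay above every resting one, a pattern that 11.3% of all genes showed, and Klf10 alone lay below, as 10.4% of all genes did. The CPM of the 28 genes summed to 836 and 833 at rest and to 2160, 1612 and 1063 after KCl.

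Of the 22 early effectors, proteins that act at synapses, in signalling or in mRNA decay, 1 was called. An unadjusted p under 0.05 was reached by 8, all in the direction of a rise (36.4%, against 2.93% of all genes). The called gene was Mbd6 (chr10:127281956-127289018), a protein of the methyl-CpG-binding domain family, at 6.36 and 8.02 CPM at rest and 17.0, 25.5 and 26.1 CPM after KCl (log2 fold change 1.67, SE 0.25, adjusted p 0.00902). With length offsets, which allow for the mix of forms counted in each library, Mbd6 was not called (log2 fold change 1.29, adjusted p 0.747). Mbd6 was put on the list because it was known to have passed in NT cultures of this series, so its place in this count carries no weight. It was lowest in depolarized replicate 1, where the transcription factors were highest, and at DIV7 it went the other way (log2 fold change -0.78).

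Arc, a capsid-like synaptic protein that controls AMPA receptor uptake, had 44.1 and 41.9 CPM at rest and 327, 180 and 87.3 CPM after KCl. Every depolarized library lay at least 2.03-fold above the resting mean, but the log2 fold change of 2.21 (SE 0.40) had an adjusted p of 0.0567. Without depolarized replicate 3 it passed (log2 fold change 2.56, adjusted p 6.44e-04), and it passed under 5 of 12 other settings in all. Gadd45g and Ppp1r15a, genes of growth arrest and stress signalling, had log2 fold changes of 0.55 and 0.40 without overlap. Ccn1, a matrix protein and SRF target, and Btg2, an antiproliferative factor, ranged widely after KCl, with 30.1, 13.3 and 3.45 CPM for Ccn1 and 77.4, 37.3 and 18.8 CPM for Btg2, so that replicate 3 lay within or below the resting libraries (4.41 and 5.41 CPM, and 21.2 and 22.7 CPM). Plk2, Sgk1, Rgs2 and Zfp36 overlapped between the states. The median of the list was 0.25, with 19 of 22 above 0, or 86.4% against 50.9% of all genes.

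Homer1, a postsynaptic scaffold whose short activity-induced form uncouples the long ones, gained little as a gene. It had 112 and 118 CPM at rest and 139, 141 and 133 CPM after KCl (log2 fold change 0.25, SE 0.084, adjusted p 0.800). Its forms, annotated as protein-coding, differed: Homer1-203 had 991 and 990.5 counts at rest and 993, 1125 and 1012 counts after KCl. Homer1-207 had 371 and 351 counts at rest and 658, 636 and 465 after KCl, and Homer1-204 had 294 and 337 against 540, 390 and 453. Which of these forms is the short one was not examined. Homer1-202, a further coding form, had 632 and 765 counts at rest and 975, 900 and 951 after KCl. For Homer1-202, Homer1-204 and Homer1-207 every depolarized library lay above the resting ones.

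Between 2 exons of Homer1, which end at position 93308360 and start again at 93341756 of chromosome 13, the annotation places the unconfirmed gene models Gm47075 (chr13:93312041-93314055) and Gm47088 (chr13:93317427-93319065) on the same strand. Gm47075 had 7 and 11 counts at rest and 171, 102 and 56 counts after KCl (0.332 and 0.522 CPM against 7.39, 4.66 and 2.51 CPM). Its log2 fold change was 3.49 (SE 0.57, adjusted p 0.0222), and Gm47088 followed with 3.68 (adjusted p 0.133). Reads of a gene model inside an intron cannot be told apart here from unspliced reads of the host. Models of this kind inside the introns of DIV7-induced genes numbered 5, Gm47075 and Gm47088 included, with a median log2 fold change of 2.04. The rest were Gm38257, Gm44888 and Gm43063, with log2 fold changes of 2.04, 0.46 and -0.81. The 958 intronic models inside other genes had a median of 0.37, with 717 above 0, and 0 of them were called. Their medians were -0.12 with vector and -0.19 with NT. All intronic models together took 0.105 and 0.116% of counts in the resting libraries and 0.129, 0.127 and 0.146% in the depolarized ones, within the range of the DIV18 libraries (0.0813 to 0.171%). The part of this shift in the rise of Gm47075 was not tested.

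**Figure D2:**
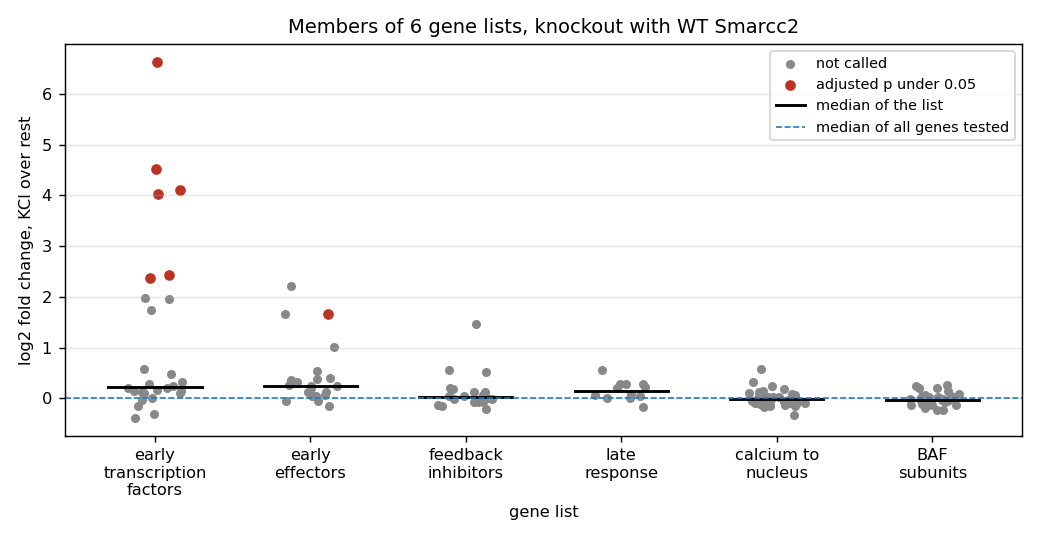
Log2 fold change (KCl over rest, edgeR) of every tested member of 6 gene lists, with called genes in red, the median of each list as a bar and the median of all genes tested as a dashed line. The called genes lie in the early transcription factors (6 of 28) and early effectors (1 of 22), while the other 4 lists hold 0.

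Feedback inhibitors, which switch the signal off again, gave 0 called genes of 20. An unadjusted p under 0.05 was reached by 3 of the 20, all in the direction of a rise, against 2.93% of all genes. Dusp1, a phosphatase of MAP kinases, had 13.1 and 13.9 CPM at rest and 62.0, 32.0 and 17.6 CPM after KCl (log2 fold change 1.47, adjusted p 0.511), and passed without depolarized replicate 3. Dusp6 and Tob1 had log2 fold changes of 0.55 and 0.21. Sik1, Crem, Nab1 and Nab2 had values of 0.18, -0.13, -0.076 and -0.072, and overlapped. The median of the list was 0.032, with 12 of 20 above 0, against 50.9% of all genes. Of the 12 late-response genes, mostly secreted peptides and growth factors, 0 were called and 0 had an unadjusted p under 0.05. Bdnf, a growth factor of synapses, had 9.96 and 8.16 CPM at rest and 7.87, 12.8 and 19.2 CPM after KCl, and so was highest in replicate 3, where the early genes were lowest. Scg2 followed the same order of libraries, at 519 and 473 CPM against 481, 619 and 723 CPM. Nptx2 alone of the 12 had every depolarized library above the resting ones, a pattern that 11.3% of all genes showed. Its log2 fold change was 0.29 (unadjusted p 0.207 by edgeR).

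The machinery that carries the signal and the complex that Smarcc2 belongs to showed no called gene. Of 30 genes for calcium channels, kinases and bound factors, Cacna1d, a calcium channel pore subunit, had a log2 fold change of 0.57 (unadjusted p 0.0227) and Elk1, an SRF partner, of -0.32 (unadjusted p 0.0272), with a median of -0.019. The 28 BAF subunits had log2 fold changes between -0.23 and 0.27, with a median of -0.026, and none had an unadjusted p under 0.05 by edgeR. Of 13 stress-response genes Atf4 (0.27) and Dnajb1 (0.43) had an unadjusted p under 0.05 (15.4%, against 2.93% of all genes for rises), and 0 were called.

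The genes that KCl had induced in DIV7 neurons (called there at a log2 rise of 1 or more) numbered 557, of which 329 could be tested here. Among them 7 were called, all higher, 45 had an unadjusted p under 0.05 in the direction of a rise and 6 in that of a fall. These shares of 13.7 and 1.82% stand beside 2.93 and 2.03% of all genes. The median log2 fold change was 0.27, with 68.4% above 0, against 50.9% of all genes. Protein-coding members (234) had a median of 0.27 and the other 95 of 0.27, while over all genes tested these classes had -0.0095 and 0.14. Genes reduced at DIV7 (478 tested) had a median of 0.071, with 59.0% above 0. Of these, 26 (5.44%) had an unadjusted p under 0.05 in the direction of a rise and 11 (2.3%) in that of a fall. The 7 called genes were Fosb, Npas4, Egr1, Fos, Egr4, Egr2 and Gm47075. Log2 fold changes in this list ran from -6.32 to 6.63, and 104 of the 329 genes lay below 0. Mir212, a microRNA precursor, had a log2 fold change of 3.26 and Elf4 of 2.29, at an unadjusted p under 0.01 by edgeR. Neither was called, and both were picked out after their values were seen, so they carry no weight for the list.

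The 3 depolarized libraries differed in how far the early genes had risen. Of the 20 activity-list genes with an unadjusted p under 0.05, 17 were highest in replicate 1 and lowest in replicate 3 with replicate 2 between, an order that 19.0% of all genes had. The exceptions were Homer1, Arl5b and Mbd6. The ratio of replicate 1 to replicate 3 ran from 0.65 for Mbd6 to 8.73 for Ccn1, with a median of 2.63. These 20 were picked by their rise in the same libraries. Over whole lists, median log2 ratios to the resting mean (log2(CPM + 0.5) scale) kept the order for early transcription factors (0.52, 0.26 and 0.19). They also kept it for early effectors (0.35, 0.23 and 0.17). The order did not hold for feedback inhibitors (0.0082, 0.12 and 0.040) or late-response genes (0.024, 0.052 and 0.335). Over the resting mean, Npas4 stood at 189-fold, 82.2-fold and 29.5-fold in replicates 1, 2 and 3, Egr1 at 7.18-fold, 5.50-fold and 2.88-fold, and Dusp1 at 4.60-fold, 2.37-fold and 1.31-fold. Depths were 22250230, 21544609 and 22054378 estimated counts in the same order. The 9 inhibitory neuron markers summed to 310, 330 and 188 CPM, against 395 and 269 CPM at rest, and the mitochondrial genome to 56180, 48482 and 74176 CPM, against 60552 and 59250 at rest. The astrocyte markers summed to 964, 1284 and 1051 CPM and the excitatory neuron markers to 2195, 2207 and 2130 CPM. Most of the astrocyte sum was Slc1a2, a glutamate transporter. Taken gene by gene, the 9 astrocyte markers had a median log2 ratio to the resting mean, on the log2(CPM + 0.5) scale, of -0.53, 0.26 and -1.05 in replicates 1, 2 and 3, and 7 of them (Gfap, Aqp4, Aldh1l1, Slc1a3, Aldoc, Gja1 and Fgfr3) were lowest of the 5 libraries in replicate 3, as 25.2% of all genes were. The medians in replicate 3 were -0.49 for the oligodendrocyte lineage and -0.53 for fibroblast and vessel markers, against 0.26 and 0.31 in replicate 1. Replicate 3 thus also stood apart in inhibitory neuron and mitochondrial RNA. It did so too in the medians of astrocyte, oligodendrocyte lineage, and fibroblast and vessel markers. The astrocyte and oligodendrocyte lineage (123.5 against 114 CPM) sums were higher there than in replicate 1, and the microglia medians were alike (-0.26 and -0.25). The part of these in the smaller rise was not tested. With vector, replicate 3 was likewise the lowest depolarized library for Fos (51.2 against 101 and 111 CPM) and Egr1 (162 against 230 and 234.5 CPM). The labels used here give no batch or date for these libraries.

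**Figure D3:**
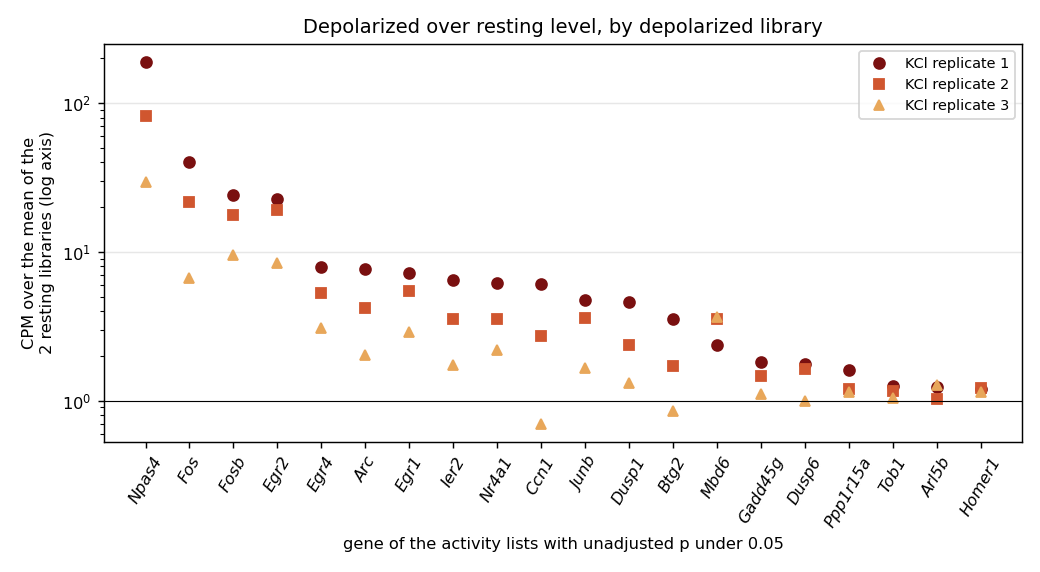
Level in each depolarized library over the mean of the 2 resting libraries (ratio of CPM, log axis) for the 20 activity-list genes with an unadjusted p under 0.05, with 1 symbol per replicate. Replicate 1 is the highest and replicate 3 the lowest for 17 of the 20 genes, and Ccn1, Btg2 and, at 0.998, Dusp6 fall below 1 in replicate 3.

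Lars2, which encodes the mitochondrial leucyl-tRNA synthetase, was the called gene that fell, from 590 and 280 CPM to 44.1, 30.5 and 31.1 CPM (log2 fold change -3.62, SE 0.64, adjusted p 0.0453). The fall lay in transcript Lars2-209, annotated for nonsense-mediated decay, with 10025 and 4433 counts at rest and 0 in all 3 depolarized libraries, where a count of 0 allows up to 3 counts. The coding transcript Lars2-201 had 1371 and 1426 counts at rest and 990, 647 and 655 after KCl. Counted from Lars2-201 alone, a choice made after the data were seen, Lars2 had a log2 fold change of -0.97 (adjusted p 0.849), and the called genes numbered 8. CT010467.1-201, annotated as ribosomal RNA, moved with Lars2-209, with 37082 and 19876 counts at rest and 1360, 401 and 360 after KCl. The pseudogene transcript CT010467.1-202 of the same gene did not, with 51671 and 41455 counts at rest and 45314, 52679 and 42205 after KCl. Mir6236 went from 201 and 129 CPM to 8.00, 2.74 and 0.716 CPM, and AA474408 from 169 and 83.4 CPM to 6.44, 4.02 and 3.62 CPM. High levels of these genes were not confined to the resting libraries with WT Smarcc2. Resting replicate 2 with the S586E construct had 220.5 CPM of Mir6236 and 198 CPM of AA474408. Depolarized replicate 2 with vector had 103 and 88.0 CPM, and depolarized replicate 1 with the S586A construct 85.5 and 66.8 CPM. Gm42418, a further gene model with ribosomal RNA sequence, had a log2 fold change of -0.88 (adjusted p 0.182), while Gm26917 (-0.21) and Gm15564 (-0.39) overlapped between the states. The 4 tested genes of the ribosomal RNA list, Lars2 among them, summed to 49746 and 34598 CPM at rest and 31618, 42279 and 30894 CPM after KCl. Elsewhere at DIV18 the highest Lars2-209 count was 3652, in a resting library of knockout with the S586E construct that also had the highest count of CT010467.1-201 outside these 5 libraries (14804). Depolarized replicate 1 with the S586A construct had 1995 counts of Lars2-209 and 9049 of CT010467.1-201. The resting libraries with WT Smarcc2 thus held both transcripts above all 15 other DIV18 libraries, and whether removal of ribosomal RNA differed between libraries was not tested.

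**Figure D4:**
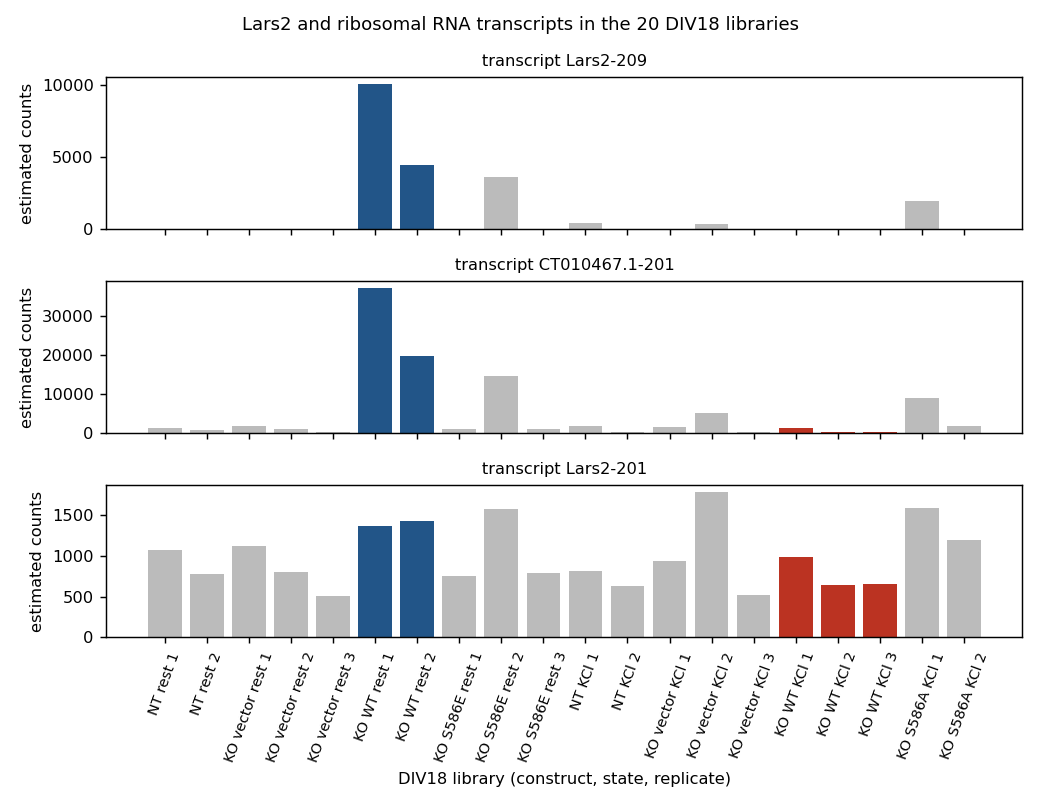
Estimated counts of Lars2-209, CT010467.1-201 and Lars2-201 in each of the 20 DIV18 libraries, with the resting libraries of knockout with WT Smarcc2 in blue, its depolarized libraries in red and all others in grey. Lars2-209 and CT010467.1-201 stand highest in the 2 blue bars, while Lars2-201 varies between 506 and 1778 counts across the grey bars.

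Among genes that averaged 1 CPM or more, had an unadjusted p under 0.001 and did not overlap, leaving out predicted genes (Gm and Rik names and pseudogenes), the 10 largest rises were those of Npas4, Fos, Fosb, Egr2, Egr4, Egr1, Arc, Nr4a1, Ier2 and Junb. The falls by the same rule numbered 9: Lars2, CT010467.1, 6 histone genes and Mrpl52, a mitochondrial ribosomal protein (11.3 and 11.0 CPM at rest against 8.08, 7.85 and 7.74 CPM). Predicted genes that met the other conditions were 3 that lay higher (Gm47088, Gm47075 and Gm12940, with log2 fold changes of 3.68, 3.49 and 1.01) and 4 that lay lower (1700023H06Rik, Gm11766, Gm26666 and Gm42418, with -2.31, -1.31, -1.30 and -0.88). Of these 1700023H06Rik had 6.17 and 4.75 CPM at rest and 1.43, 0.730 and 1.12 CPM after KCl (adjusted p 0.0913), and log2 fold changes of -2.26 with vector and -3.74 with NT. Hist1h1c, a linker histone, had 50.9 and 43.5 CPM at rest and 26.3, 37.1 and 26.8 CPM after KCl (log2 fold change -0.65, SE 0.14, adjusted p 0.182). Hist1h4f, a core histone, had 19.0 and 13.9 CPM at rest and 8.21, 10.3 and 10.9 CPM after KCl (log2 fold change -0.75, adjusted p 0.182). Replication-dependent histone mRNAs end in a stem-loop in place of a poly(A) tail, so that total RNA libraries can count them. All 62 tested histone genes, the 6 already picked by their falls included, were then looked at after these values were seen. Of these 58 lay below 0 and 6.45% above it, against 50.9% above 0 of all genes. An unadjusted p under 0.05 in the direction of a fall was reached by 27 (43.5%, against 2.03% of all genes). In the direction of a rise it was reached by 2 (3.23%, against 2.93%), and the median was -0.51. The medians were -0.35 with vector and -0.29 with NT, and 0 histone genes were called with WT. The 10 proliferation genes summed to 44.2 and 41.5 CPM at rest and 48.5, 42.3 and 42.2 CPM after KCl.

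The same contrast with the empty vector and with NT was used to see where the response with WT Smarcc2 differed. For the difference of responses 0 genes were called against vector (0% of 20940, 768 at an unadjusted p under 0.05) and 0 against NT (0%, 619 at an unadjusted p under 0.05). The log2 fold change of Fosb was 4.10 with WT, 4.11 with vector and 3.17 with NT, and the difference of WT from vector was -0.0038 (95% interval -1.02 to 1.02). Egr1 had 2.38, 2.34 and 1.73, with a difference of 0.038 from vector (-0.78 to 0.86) and of 0.64 from NT (-0.26 to 1.55). For Fos the values were 4.52, 3.80 and 3.36, and the difference of 0.72 from vector had an interval from -0.92 to 2.35. For Npas4 they were 6.63, 5.60 and 4.73, with a difference of 1.04 from vector (-1.78 to 3.85). These intervals are wide enough to hold differences of over 2-fold for Fosb, Fos and Npas4, so equal responses were not shown.

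Egr2 differed most among the called risen genes, with log2 fold changes of 4.04, 1.62 and 1.88 and a difference of 2.42 from vector (95% interval 0.81 to 4.03, unadjusted p 0.00544, adjusted p 1.00 by edgeR). Its depolarized level was 4.38 ± 1.94 CPM (SD, n = 3) with WT, 4.42 ± 0.95 (SD, n = 3) with vector and 5.28 ± 1.44 (SD, n = 2) with NT. The resting level was 0.261 ± 0.302 CPM (SD, n = 2) with WT, below the 1.43 ± 0.388 (SD, n = 3) with vector and 1.43 ± 0.0778 (SD, n = 2) with NT. In the early transcription factors the median log2 fold change was 0.23 with WT, 0.48 with vector and 0.39 with NT, and in the early effectors 0.25, 0.26 and 0.23. Wsb1, Arc, Junb, Ier2, Sema4g and Plekhn1 were called higher with vector and not with WT. Their log2 fold changes were 0.96, 1.90, 1.74, 2.095, 0.48 and 0.49 with vector. With WT, on 2 resting libraries in place of 3, they were 0.70, 2.21, 1.74, 1.97, 0.30 and 0.29. For these genes the difference of responses had an unadjusted p between 0.155 and 0.999 by edgeR, so a weaker response with WT was not shown. Pcp4, a calmodulin-binding peptide, and Zc3h11a, an RNA-export factor, were called lower with vector (-0.996 and -1.28) and had -0.070 and 0.15 with WT. Their differences of responses (0.93 and 1.42) had an unadjusted p of 0.00142 and 1.15e-04 and were not called (adjusted p 1.00 for both).

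**Figure D5:**
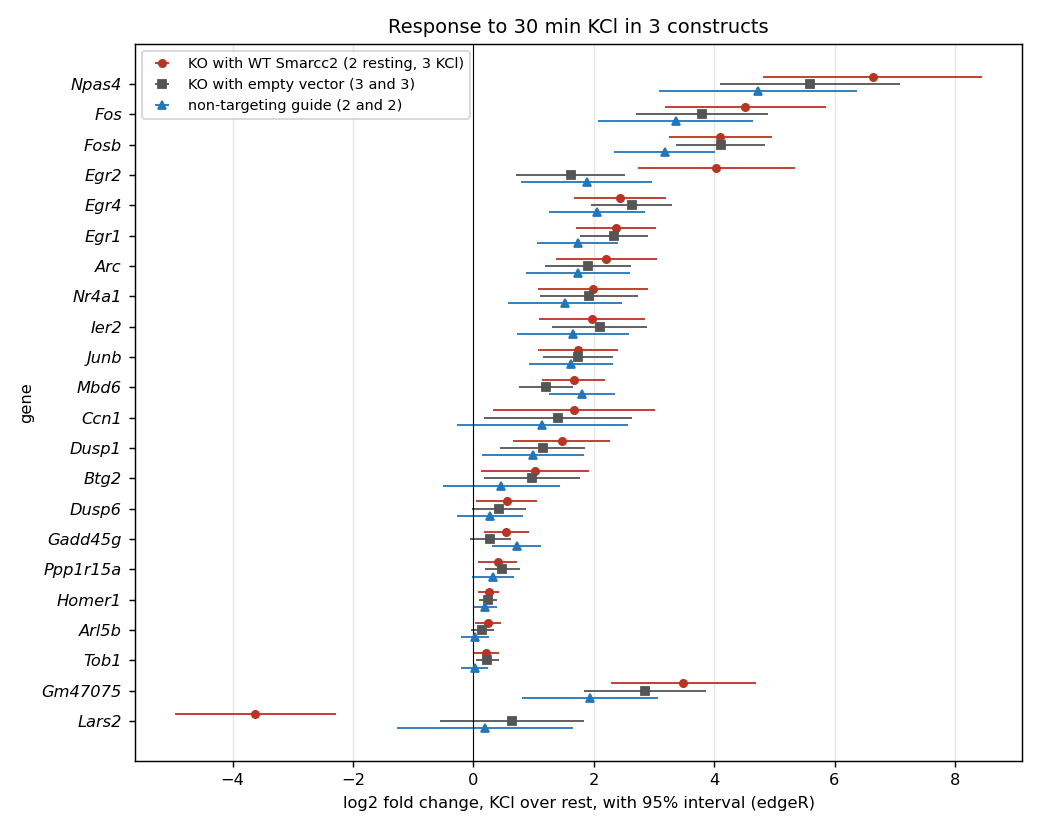
Log2 fold change (KCl over rest) with its 95% interval from edgeR for the 20 activity-list genes with an unadjusted p under 0.05 and for Gm47075 and Lars2, in knockout with WT Smarcc2 (red), knockout with empty vector (grey) and non-targeting cultures (blue). The intervals of the 3 constructs overlap for the 20 activity-list genes other than Egr2, and Lars2 is far below 0 with WT alone.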

How the data were processed

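RNA was sequenced in 24 libraries, of which the 5 of knockout with WT Smarcc2 are described here. Per the file headers, the deposited tables give estimated counts, TPM (transcripts scaled by effective length to a fixed total) and effective lengths per transcript of 1 library each. They have the layout of kallisto, which the submitters' processing notes name with FastQC and cutadapt; versions, index and genome build are not given in the sources used here. TPM deposited by the authors served only as weights for gene lengths. Of 142552 transcripts, 141429 (99.2%) matched GENCODE M21 (GRCm38). Each gene's count is the rounded sum of its transcripts' estimated counts.

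All 20 DIV18 libraries (8 groups) entered 1 fit, which shares its estimate of the spread, with edgeR 4.0.16 (R 4.3.3; quasi-likelihood test, two-sided, TMM, filterByExpr, 20940 genes, Benjamini-Hochberg adjustment, called at an adjusted p under 0.05). Standard errors come from the F statistic. The DIV7 libraries were fitted apart. P-values measure the spread between cultures. Also tried were DESeq2 1.42.0, its size factors in edgeR, other filters, a replicate block, length offsets, fewer groups and each library left out.

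The members and the gene lists were chosen with earlier results of these data known. Genes named were the called genes, members of the 4 activity lists (early factors, early effectors, feedback inhibitors, late response) by p-value, the 10 largest rises and falls at an unadjusted p under 0.001 with at least 1 CPM and no overlap (predicted genes left out), and genes called with vector only. Elf4, Mir212, the predicted genes, the histone genes and other members named by their overlap were picked after their values were seen. Promoter sequences are RefSeq's (GRCm38.p6); 4 of the 14 genes looked up had no entry and were not analysed here.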

Additional observations from a re-analysis of the deposited data

How the results depend on the processing

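The WT response gave 9 called genes, and 9 with median-of-ratios size factors, 8 with a stricter low-count filter and 12 with length offsets. DESeq2 called 32 (22 higher, 10 lower), the fit without a low-count filter 196 (88 higher, 108 lower; 1 of them outside the main filter) and the fit of only the groups compared 5 (1 higher, Fosb). Leaving out 1 library gave 1 to 12 calls, and 1 without either resting library. Fosb was called under all 12 other settings chosen at the start, and Egr1, Egr2, Egr4, Fos and Npas4 under 9 of 12, lost without either resting library and in the fit of only these groups; Gm47075 kept its call under 8, Mbd6 under 7 and Lars2 under 6. With the replicate number as a block 10 genes were called, of which 8 were among the 9; Mbd6 was lost (adjusted p 0.0666) and Arc and Junb were gained (0.0139 and 8.06e-04, edgeR). Same-numbered libraries with WT did not deviate together (r -0.0293 and -0.0444), nor did those of NT (-0.0465); with vector r was 0.128, 0.0689 and 0.238, not above 0.1 for every pair, and resting replicate 1 was as near to depolarized replicate 2 (0.131). With 2 resting libraries the deviations from their mean mirror each other, so the r of WT and NT cannot settle pairing. The main fit did not use the numbers to pair libraries. Replicate 3 had the highest retained-intron share in every DIV18 group that held one, from 1.889% (vector at rest) to 2.055% (vector after KCl). No resting WT library is a replicate 3, and what the replicate 3 libraries share was not tested.

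For the difference from vector DESeq2 called 1 gene and the fit without a filter 116, and for that from NT the fit without a filter called 145 and the replicate block 1. Called early transcription factors fell from 6 to 1 without either resting library (range 1 to 8 over libraries left out), early effectors ranged from 0 to 2, feedback inhibitors from 0 to 1 and DIV7-induced genes from 1 to 11. The medians over libraries left out ran from -0.0295 to 0.0416 for the feedback inhibitors and from 0.193 to 0.321 for the DIV7-induced genes, and with all genes called higher at DIV7 the latter was 0.056. Uncalled Zc3h11a changed sign with the block (-0.020), Pcp4 without depolarized or resting replicate 1 (range -0.275 to 0.159 over libraries left out), and Clca1 without the same libraries (-0.307 to 0.190) and with length offsets (0.55). The cause of these changes was not tested. With 2 resting libraries, small rises are beyond the precision here.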
